A study of Danio rerio with 16 samples.

Results

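The genes described here make haemoglobin or belong to the red blood cell, and they were followed in eyes and brains dissected from zebrafish larvae at 120 hours post fertilization (hpf). They were set by gene name, by a rule that uses no measured value: the embryonic alpha globins hbae1.1, hbae1.3, hbae3 and hbae5, the embryonic beta globins hbbe1.1, hbbe1.3 and hbbe2, the haem synthesis gene alas2 and the anion exchanger gene slc4a1a. Of these 9 names, 7 were found among the gene names of 31901 genes, and 2 were not. By its identifier, the reference table names one of the genes that the deposited tables call hbae1 as hbae1.1, and its values are given with the other globins. No entry could be tied to hbbe1.3 by name or identifier. The beta class gene AL935210.1, next to hbae1.3 on chromosome 3, was not equated with it.

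The larvae were wild type, and every group was kept in DMSO at 0.02%, the solvent, from 6 to 120 hpf. The control groups received DMSO alone, and the exposed groups received in addition 0.2 uM phenol isopropylated phosphate (IPP), a mixture of organophosphate esters used as a flame retardant and plasticizer. The whole embryo was exposed, and eye and brain were dissected afterwards, which gave 4 groups (eye DMSO, eye IPP, brain DMSO and brain IPP) of 4 libraries each. How many larvae went into a library, and whether replicates came from separate clutches, is not stated in the labels, so that the p-values measure the spread between these libraries, which may be technical.

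Vertebrate haemoglobin is a tetramer of a pair of alpha chains and a pair of beta chains, each holding a haem group whose iron binds oxygen. Zebrafish keep their alpha and beta globin genes side by side, in a major locus on chromosome 3 and a minor locus on chromosome 12. Separate embryonic and larval globins are replaced later by adult globins. Fish red cells keep their nucleus. Red cells are not made in retina or brain and reach both with the circulation. In these bulk libraries, fewer red cells and less globin RNA per red cell cannot be told apart.

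The values were FPKM, fragments scaled by gene length and library size, and 10.6 to 12.5 M reads per eye library and 9.62 to 16.3 M per brain library (M, mega) could be recovered from them. The dissections mostly matched their labels: 15 of 15 eye markers were higher in every eye library than in any brain library. Of 14 brain markers, 12 were higher in every brain library than in any eye library. The brain marker fezf2 went the other way, at 67.7 to 91.4 FPKM in eye and 8.52 to 13.6 FPKM in brain, and gnrh3 overlapped. Brain libraries held small and uneven amounts of the rod gene rho, from 0.158 to 35.3 FPKM, against 3313 FPKM or more in eye. Brain DMSO replicate 1 and brain IPP replicate 4 stood apart in genes of liver plasma proteins, with apoa1b at 1277 and 1610 FPKM against 1.34 to 4.38 FPKM in the other 6 brain libraries. In brain, counts over the set and over lists of genes are therefore also given without these libraries.

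The globin genes lay close together. On chromosome 3, 13 globin genes, 7 of the alpha and 6 of the beta class, filled 56.6 kb (55091230 to 55147788, in the coordinates of the deposited tables; no source used here names their genome build), and no other listed gene lay in that span. The embryonic genes hbbe1.1 (55114097 to 55114874, plus strand), hbae1.3 (55138413 to 55139127, minus strand) and hbae3 (55146418 to 55147788, minus strand) belonged to this locus. The chromosome 12 locus held 4 globin genes in 17.5 kb (20336070 to 20353541), among them hbae5 (20342451 to 20353541, plus strand) and hbbe2 (20349865 to 20350629, minus strand). The annotated span of hbae5 contained hbbe2 on the other strand, and no source used here says whether the counting used strand, so reads of the 2 genes may not be fully separated. The same holds for alas2 on chromosome 8 (21353878 to 21369028, plus strand) and its partner ela2l. The band 3 gene slc4a1a lay on chromosome 3 away from the globins (20065861 to 20092124, minus strand). Near-identical globins share reads: hbbe1.1 and hbbe1.2 had the same exonic length of 684 bases and the same span of 778 bases, and the split of reads between them is uncertain.

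The same gene of each class had the highest mean level of its class in both tissues. The alpha globin hbae3 had the highest level, 254 ± 44.1 FPKM over the 8 eye libraries and 229 ± 82.1 FPKM over the 8 brain libraries (mean ± SD). The beta globin hbbe1.1 followed at 139 ± 62.9 FPKM in eye and 172 ± 104 FPKM in brain. As listed, hbbe1.1 was below hbae3 in 8 of 8 libraries of each tissue although the ranges overlapped. It was above the next gene, AL935210.1, in 7 of 8 libraries of each tissue. These orders depend on the uncertain split of reads between hbbe1.1 and hbbe1.2. In brain IPP replicate 3, for example, hbbe1.1 stood at 386, hbbe1.2 at 50.6 and hbae3 at 406 FPKM. Eye and brain were scaled in separate tables, so levels in the tissues were not tested against each other.

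Below this pair, AL935210.1, hbbe1.2 and hbbe2 had mean levels between 36.1 and 51.7 FPKM and could not be ordered. AL935210.1 is a gene of the chromosome 3 locus that the reference pairs with the same human symbol as hbbe1.1. That symbol is also given to hbbe1.2, hbbe2 and the adult hbba1 and hbba2, so it does not set the stage of AL935210.1. In level, AL935210.1 exceeded its next neighbour in 4 of 8 libraries of each tissue. A clear step followed: the lowest hbbe2 value in eye was 28.8 FPKM, and the alpha globin hbae1.3 did not exceed 25.4 FPKM. In brain the step lay between hbbe1.2, at 19.6 FPKM or more, and hbae1.3, at 15.1 FPKM or less. The alpha globins hbae1.3, hbae1.2 and hbae1.1 then averaged 15.3, 13.4 and 6.03 FPKM in eye and 11.4, 9.96 and 6.31 FPKM in brain.

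The chromosome 12 gene hbae5 stood at 1.55 ± 1.92 FPKM in eye and 0.884 ± 0.546 FPKM in brain, far below its neighbour hbbe2. The alpha globin hbae4 of the same locus was lower still on average, at 0.509 FPKM in eye and 0.484 FPKM in brain. The beta globin hbbe3 was at 0 in 6 of 8 brain libraries and in 6 of 8 eye libraries, but reached 7.65 FPKM, from 53 reads, in eye IPP replicate 2. Few reads were counted for adult globins, taken over 6 entries that include a second entry of hbba1. Of their values, 3 of 48 in eye and 8 of 48 in brain were above 0, from 6 and 17 reads in all. The highest was 0.904 FPKM. Reads that near-identical copies share may have gone uncounted, so these zeros do not show absence.

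**Figure D1:**
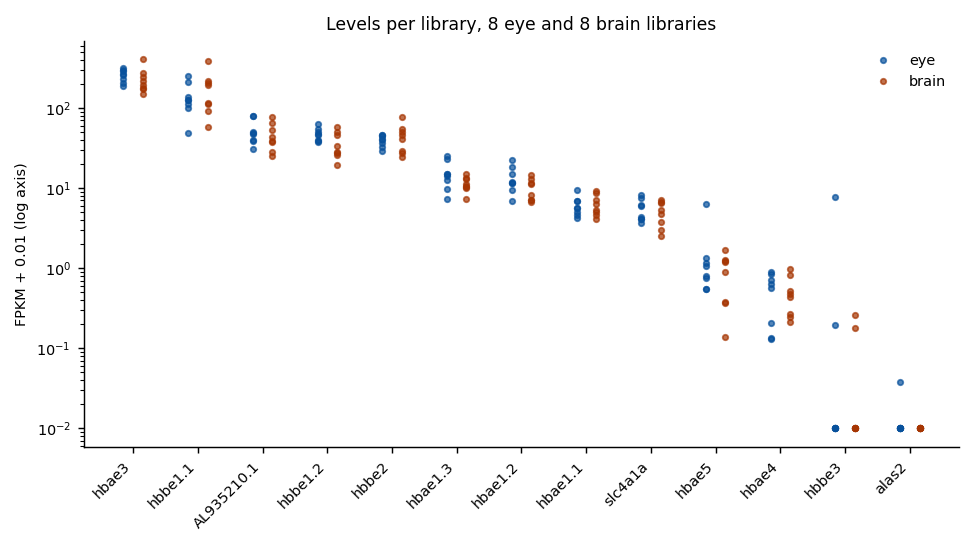
Level of each globin or red cell gene in each library, as FPKM + 0.01 on a log axis, with 8 eye libraries in blue and 8 brain libraries in brown. The genes run from hbae3, at 254 FPKM on average in eye, down to alas2, which is at 0 in 7 eye libraries and 8 brain libraries.

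The gene alas2, the red cell form of the enzyme that starts haem synthesis, was at 0 in 7 of 8 eye libraries and in 8 of 8 brain libraries, and 1 read gave 0.0284 FPKM in eye IPP replicate 4. A count of 0 allows up to 3 reads, which is 0.0769 to 0.0975 FPKM in eye and 0.0615 to 0.103 FPKM in brain; this limit covers counting error only. It was not tested for a treatment effect. The genes named in the rest of this paragraph were chosen after their values were seen. The erythroid master regulator gata1a did not exceed 0.321 FPKM in eye or 0.203 FPKM in brain, and the mitochondrial iron importer slc25a37 did not exceed 0.584 FPKM in eye or 0.253 FPKM in brain. Other genes of the same lists were higher: urod, of haem synthesis, ranged from 2.08 to 7.01 FPKM in eye and from 3.12 to 7.20 FPKM in brain, and the blood factor lmo2 from 2.27 to 4.38 FPKM and from 7.5 to 11.796 FPKM. The housekeeping form alas1 was present throughout, from 57.5 to 94.6 FPKM in eye and from 50.3 to 82.1 FPKM in 7 brain libraries, with 257 FPKM in brain IPP replicate 4, one of the libraries high in liver genes. Genes known from mature red cells were also measurable, but which cells their reads came from was not tested. The carbonic anhydrase cahz ranged from 43.4 to 56.1 FPKM in eye and from 22.4 to 30.2 FPKM in brain. For hemgn the ranges were 3.66 to 5.19 FPKM and 4.002 to 6.55 FPKM. Band 3, encoded by slc4a1a, exchanges chloride for bicarbonate across the red cell membrane, and its gene averaged 5.52 ± 1.73 FPKM in eye and 4.95 ± 1.76 FPKM in brain.

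Together the 17 globin genes took 370 ± 118 reads per M recovered reads in eye DMSO, 450 ± 49.3 in eye IPP, 315 ± 74.6 in brain DMSO and 473 ± 181 in brain IPP (SD, n = 4). The lowest and highest libraries were 260 and 536 in eye DMSO and 411 and 518 in eye IPP. In brain they were 267 and 425 in DMSO and 297 and 722 in IPP. The groups overlapped in both tissues.

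The design asks whether IPP changed these genes in either tissue. No gene passed an adjusted p of 0.05 in any comparison, haemoglobin genes included: 0 of 17096 genes tested (0%) in eye, 0 of 17533 (0%) in brain and 0 of 15856 (0%) for the difference between the tissues (limma on log2 of FPKM + 0.5, Benjamini-Hochberg adjustment). At an unadjusted p under 0.05, 1886 genes (11% of those tested) were found in eye, 512 (2.92%) in brain and 640 (4.04%) for the difference. Fold changes below are on the log2(FPKM + 0.5) scale, which understates changes of low genes, and of the 7 genes found 6 were tested, alas2 being under the mean level of 0.5 FPKM required.

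Among the alpha globins of the set, hbae1.3 separated exposed from control libraries in both tissues, by narrow margins. In eye it stood at 7.28, 12.6, 9.69 and 14.3 FPKM in DMSO replicates 1 to 4 and at 14.9, 15.02, 23.0 and 25.4 FPKM in IPP replicates 1 to 4, from 42 to 168 reads. Every exposed eye library lay above every control one, by 14.9 against 14.3 FPKM at the narrowest point, from 97 and 103 reads. The fold change was 0.81 ± 0.24 (log2, with its SE; limma adjusted p = 0.336). In brain hbae1.3 stood at 10.8, 10.2, 10.1 and 7.35 FPKM in DMSO and at 11.2, 13.2, 13.1 and 15.1 FPKM in IPP. Again each exposed library was above each control library, by 11.2 against 10.8 FPKM at the narrowest point, from 70 and 67 reads. The fold change was 0.44 ± 0.14 (limma adjusted p = 0.999964). For hbae1.1 and hbae1.2 the groups overlapped in both tissues. How reads split between these genes and hbae1.3 was not tested, and the separation may depend on it. Of all genes tested, 2.22% in eye and 0.958% in brain had every IPP library above every DMSO library, and 3.54% and 1.1% had every IPP library below.

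The main alpha globin hbae3 stood at 204, 187, 233 and 311 FPKM in eye DMSO and at 255, 288, 296 and 263 FPKM in eye IPP. Control replicate 4 was the highest eye library, so the groups overlapped (0.26 ± 0.15, limma adjusted p = 0.524). The change was 0.16 without DMSO replicate 2 and 0.41 without DMSO replicate 4. In brain it stood at 177, 245, 193 and 148 FPKM in DMSO and at 219, 270, 406 and 172 FPKM in IPP. IPP replicate 3 was the highest and IPP replicate 4 lay below control replicate 1 (0.43 ± 0.26, limma adjusted p = 0.999964). Over single libraries left out, the change in brain ran from 0.20, without IPP replicate 3, to 0.62.

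The chromosome 12 alpha globin hbae5 stayed at 1.68 FPKM or less in 15 of 16 libraries. In eye it stood at 1.07, 0.532, 1.32 and 0.734 FPKM in DMSO and at 0.541, 1.14, 6.26 and 0.799 FPKM in IPP, where the high value of replicate 3 came from 88 reads against 7 to 19 reads in the other eye libraries. That library set the sign: the fold change was 0.51 ± 0.52 (limma adjusted p = 0.737), -0.08 without it and 0.82 without IPP replicate 1. In brain hbae5 stood at 0.353, 1.24, 0.368 and 0.129 FPKM in DMSO and at 1.196, 1.21, 1.68 and 0.889 FPKM in IPP, from 2 to 35 reads. Control replicates 1, 3 and 4 lay below the exposed libraries and control replicate 2 lay among them (0.86 ± 0.34, limma adjusted p = 0.999964).

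The main beta globin hbbe1.1 varied widely from library to library. In eye it stood at 138, 48.7, 127 and 210 FPKM in DMSO and at 125, 100, 248 and 113 FPKM in IPP. Control replicate 2 was the lowest eye library and IPP replicate 3 the highest, and the fold change was 0.24 ± 0.42 (limma adjusted p = 0.858). Its sign turned without either library, to -0.17 without DMSO replicate 2 and to -0.04 without IPP replicate 3, and it was 0.53 without DMSO replicate 4 and 0.39 without IPP replicate 2. In brain hbbe1.1 stood at 58.3, 218, 92.1 and 114 FPKM in DMSO and at 195, 202, 386 and 113 FPKM in IPP. The fold change was 0.92 ± 0.45 (limma adjusted p = 0.999964), with control replicate 2 above 3 of the 4 exposed libraries. Over single libraries left out, it ran from 0.61, without IPP replicate 3, to 1.26. Within groups the coefficient of variation of hbbe1.1 was 46.9 to 57.2%, and that of hbae3 was 7.17 to 38.0%.

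The chromosome 12 beta globin hbbe2 stood at 44.5, 28.8, 40.6 and 46.0 FPKM in eye DMSO and at 45.7, 32.9, 39.4 and 36.0 FPKM in eye IPP. The eye groups covered the same range (-0.04 ± 0.16, limma adjusted p = 0.939), and the 95% interval of the log2 change ran from -0.39 to 0.31. In brain it stood at 27.0, 41.2, 45.6 and 24.3 FPKM in DMSO and at 53.9, 49.9, 76.9 and 29.4 FPKM in IPP. IPP replicates 1 to 3 lay above the controls and IPP replicate 4 lay among them (0.57 ± 0.31, limma adjusted p = 0.999964). Over single libraries left out, the change in brain ran from 0.36, without IPP replicate 3, to 0.82.

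The band 3 gene slc4a1a stood at 3.68, 4.13, 4.07 and 6.21 FPKM in eye DMSO and at 4.35, 8.21, 5.98 and 7.56 FPKM in eye IPP. The groups overlapped at control replicate 4 (0.47 ± 0.21, limma adjusted p = 0.454). In brain slc4a1a stood at 3.76, 5.24, 2.99 and 2.52 FPKM in DMSO and at 4.67, 6.59, 7.03 and 6.78 FPKM in IPP, with IPP replicate 1 below control replicate 2. Its fold change in brain, 0.74 ± 0.22, had an unadjusted p under 0.05 (limma adjusted p = 0.999964).

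**Figure D2:**
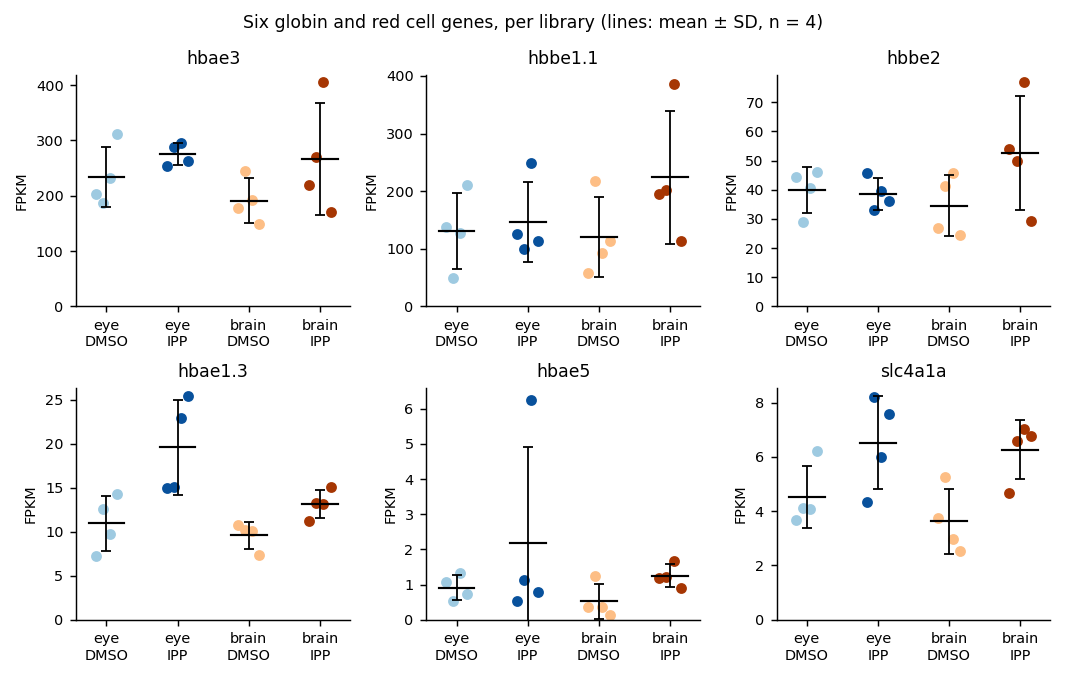
FPKM of the 6 tested genes in each library (points), with the mean and SD of each group of 4 (lines; SD bars are cut off at 0). Exposed and control points separate narrowly for hbae1.3 in both tissues, whereas hbae5 in eye IPP has 1 library at 6.26 FPKM and the rest at 1.14 FPKM or less.

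Counted over the set, 5 of 6 genes had a positive fold change in eye and 6 of 6 in brain, while 49.5% of all genes tested in eye and 53.1% in brain were positive. Their median log2 fold change was 0.37 in eye, where the median of all genes was -0.004, and 0.65 in brain, where it was 0.014. An unadjusted p under 0.05 was reached by 1 of 6 in eye and 3 of 6 in brain. The shares of all genes that were higher at that level were 5.3% and 1.56%. The globins among them may share reads, and these genes come from the same libraries, so they are not separate pieces of evidence. The direction rested partly on single libraries in eye: without IPP replicate 3, 3 of 6 genes were positive there. Without brain DMSO replicate 1 and IPP replicate 4, the brain libraries high in liver genes, 6 of 6 genes were positive in brain, against 51.8% of all genes. There 4 of the 6 had an unadjusted p under 0.05, as did 443 of all 17042 genes tested. That count was 6 without IPP replicate 4 alone (556 of all 17138 genes). It was 1 without IPP replicates 3 and 4 (888 of all 17004 genes), so it depends on the libraries kept.

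The 4 other globins of the chromosome 3 locus that could be fitted had positive fold changes in both tissues. Of all genes tested, 49.5% in eye and 53.1% in brain were positive. These globins may share reads with those of the set and come from the same libraries, so they are not separate pieces of evidence. The 6 adult entries there were below the level required for a test. The alpha globin hbae1.2 averaged 9.94 ± 2.31 FPKM in eye DMSO and 16.8 ± 4.74 FPKM in eye IPP (0.72 ± 0.22, limma adjusted p = 0.341), and the change in brain was 0.44 ± 0.24. The beta globin hbbe1.2 averaged 41.7 ± 5.93 and 52.9 ± 7.40 FPKM in eye (0.34 ± 0.13, limma adjusted p = 0.391). In brain hbbe1.2 averaged 27.3 ± 5.74 FPKM in DMSO and 44.9 ± 13.4 FPKM in IPP (0.68 ± 0.25, limma adjusted p = 0.999964). For hbae1.1 the changes were 0.31 ± 0.21 in eye and 0.37 ± 0.23 in brain, and for AL935210.1 they were 0.50 ± 0.24 and 0.15 ± 0.35. Summed over 17 globin genes, the level was 516 ± 132 FPKM in eye DMSO and 622 ± 74.5 FPKM in eye IPP. Such a sum leaves aside how counted reads split between near-identical copies, but would miss any reads left uncounted. The brain sums were 443 ± 108 FPKM in DMSO and 670 ± 237 FPKM in IPP. The difference of the group means of log2(sum + 0.5) was 0.30 in eye and 0.56 in brain, and the groups overlapped in both tissues. In eye it was 0.16 without DMSO replicate 2 and 0.45 without DMSO replicate 4. In brain it was 0.35 without IPP replicate 3 and 0.72 without IPP replicate 4.

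**Figure D3:**
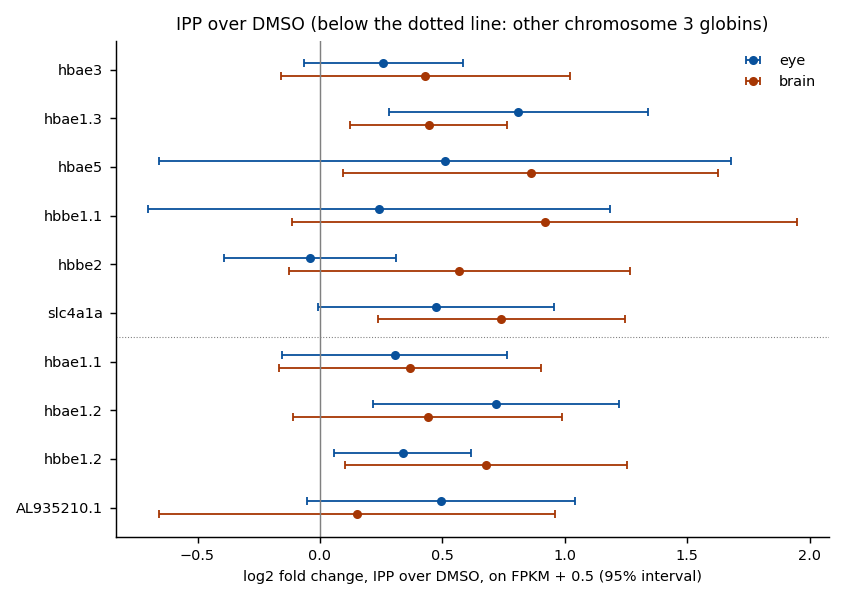
Log2 fold change of IPP over DMSO with its 95% interval for the 6 tested genes and, below the dotted line, 4 other globins of chromosome 3, in eye (blue) and brain (brown). The intervals leave out 0 for hbae1.3, hbae1.2 and hbbe1.2 in eye and for hbae1.3, hbae5, slc4a1a and hbbe1.2 in brain, before adjustment for the number of genes tested.

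The change in eye was not shown to differ from the change in brain. For the difference, eye minus brain, 0 of 6 genes had an unadjusted p under 0.05 in limma (4.04% of all genes did), and the adjusted p was 0.999777 for each. The estimates were negative for 5 of 6 genes and positive for 1, where 45% of all genes were positive, and 1.43% were positive with an unadjusted p under 0.05. The nearest to the threshold was hbbe2, at -0.61 with a 95% interval from -1.39 to 0.17. For hbae1.3 the estimate was 0.37, with an interval from -0.27 to 1.003. The interval of hbbe1.1, from -2.13 to 0.78, was the widest of the 6.

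Alpha and beta globins were present in near-equal amounts. Alpha genes made up 51.1 ± 3.86% of summed globin FPKM in eye DMSO, 51.8 ± 2.45% in eye IPP, 48.9 ± 3.08% in brain DMSO and 44.9 ± 0.432% in brain IPP (SD, n = 4). The brain IPP libraries lay between 44.5 and 45.5%, below the brain DMSO libraries, which lay between 46.1 and 52.4%. The eye groups overlapped. This share was read beside several others and was not tested, and it would miss any reads left uncounted. Counted by reads, it was 53.0% in brain DMSO and 48.7% in brain IPP. The alpha share is mostly that of hbae3, which held 43.4 ± 2.93% of globin FPKM in brain DMSO and 39.5 ± 1.54% in brain IPP.

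Within the beta class, the shares of hbbe1.1 and AL935210.1 differed widely between libraries. In brain DMSO replicate 1, hbbe1.1 held 14.7% and AL935210.1 held 19.4% of globin FPKM, while in brain IPP replicate 3 they held 38.5% and 4.28%. In eye, DMSO replicate 2 had the lowest share of hbbe1.1, 12.7%, and the highest of AL935210.1, 13.2%, and IPP replicate 3 had 34.2% and 5.54%. The minor locus on chromosome 12 held 8.12 ± 1.23% of globin FPKM in eye DMSO, 7.01 ± 1.07% in eye IPP, 8.08 ± 2.10% in brain DMSO and 8.12 ± 1.39% in brain IPP. Most of it was hbbe2, and in eye IPP replicate 2 hbbe2 held 5.39% and hbbe3 1.25% of globin FPKM.

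**Figure D4:**
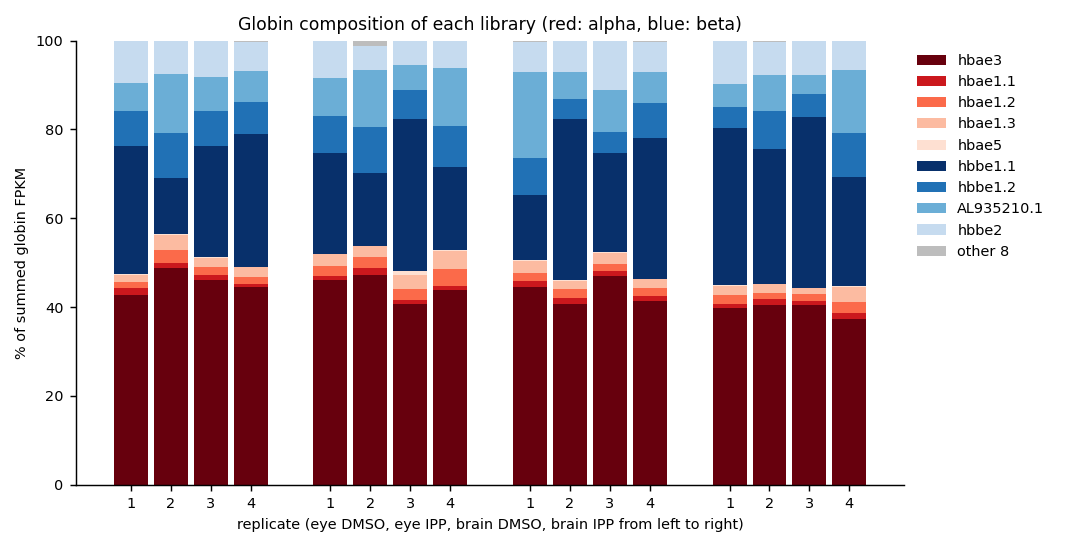
Share of each globin gene in the summed globin FPKM of each of the 16 libraries, alpha genes in red and beta genes in blue. The dark blue share of hbbe1.1 varies from 12.7 to 38.5%, and the red total is lowest in the 4 brain IPP libraries, at 44.5 to 45.5%.

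Other genes that serve red cells were read from lists, none of which held a gene that passed adjustment, with or without the 2 brain libraries high in liver genes. Without those libraries, 51.8% of all genes tested in brain were higher. Of 21 tested genes of haem synthesis and mitochondrial iron in eye, 14 were higher and 7 lower (median log2 change 0.05), and of 20 in brain 18 were higher and 2 lower (median 0.18). In brain IPP replicate 4 these genes summed to 437 FPKM against 168 to 217 FPKM in the brain DMSO libraries, and without the 2 libraries 13 were higher and 7 lower (median 0.12). The genes urod, cpox, slc2a1b and blvrb, named here and below, were picked for small unadjusted p values in their lists. A lack of overlap in them is partly set by that choice, so the share of all genes cannot be used to judge it. The uroporphyrinogen decarboxylase gene urod averaged 3.53 ± 1.26 FPKM in eye DMSO and 6.07 ± 0.772 FPKM in eye IPP, with no overlap, as for 2.22% of all genes (0.76 ± 0.22, limma adjusted p = 0.338). In brain urod changed by 0.24 ± 0.21. The coproporphyrinogen oxidase gene cpox averaged 4.48 ± 0.499 FPKM in brain DMSO and 5.66 ± 0.686 FPKM in brain IPP (0.31 ± 0.13, limma adjusted p = 0.999964), and in eye its change was 0.006 ± 0.18.

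For the red cell membrane and its skeleton, 12 of 18 tested genes were higher in eye (median 0.21) and 9 of 17 in brain (median 0.03), or 8 of 17 (median -0.01) without the 2 libraries. The glucose transporter gene slc2a1b averaged 12.3 ± 1.45 FPKM in eye DMSO and 20.8 ± 4.38 FPKM in eye IPP (0.72 ± 0.15, limma adjusted p = 0.274), and its groups did not overlap, as for 2.22% of all genes. The ammonium channel gene rhag, a partner of band 3 in the red cell membrane, went the other way in eye, from 28.9 ± 6.01 to 22.5 ± 2.87 FPKM (-0.34 ± 0.15, limma adjusted p = 0.438). In brain rhag reached 32.5 FPKM in IPP replicate 4 and lay between 3.505 and 9.71 FPKM in the other libraries. Both genes are also active outside red cells.

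Erythroid transcription factors and receptors were higher for 10 of 15 genes in eye (median 0.22) and 8 of 14 in brain (median 0.10), or 8 of 14 (median 0.004) without the 2 libraries. The blood and neuron factor tal1 averaged 49.4 ± 3.51 FPKM in brain DMSO and 40.2 ± 6.22 FPKM in brain IPP (-0.30 ± 0.11, limma adjusted p = 0.999964), against 0.508 and 0.819 FPKM in eye. Red cell enzymes and late red cell genes were higher for 10 of 22 genes in eye (median -0.05) and 16 of 22 in brain (median 0.16), or 14 of 21 (median 0.06) without the 2 libraries. Among them the biliverdin reductase gene blvrb averaged 4.65 ± 0.783 FPKM in brain DMSO and 6.63 ± 1.25 FPKM in brain IPP, with no overlap, as for 0.958% of all genes (0.47 ± 0.17, limma adjusted p = 0.999964). Genes of iron uptake, storage and haem breakdown were higher for 10 of 21 in eye (median -0.05) and 17 of 22 in brain (median 0.10). These genes summed to 1723 FPKM in brain DMSO replicate 1 and 2255 FPKM in brain IPP replicate 4, and without these libraries 13 of 21 were higher (median 0.01). In eye, the haem breakdown genes blvra and hmox2b had changes of 0.80 ± 0.27 (limma adjusted p = 0.355) and 0.72 ± 0.27 (limma adjusted p = 0.397), and the haem transporter family gene flvcr2a went the other way, at -0.55 ± 0.22 (limma adjusted p = 0.406).

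Genes of the response to low oxygen were higher for 10 of 18 in eye (median 0.08) and 12 of 18 in brain (median 0.06), or 11 of 18 without the 2 libraries. None reached an unadjusted p under 0.05 in either tissue, where 11% of all genes tested in eye and 2.92% in brain did. Globins of other cells were also listed: neuroglobin (ngb), the globin of neurons, changed by -0.42 ± 0.23 in eye and -0.11 ± 0.14 in brain, and myoglobin (mb), the globin of muscle, by -0.002 ± 0.30 and 0.45 ± 1.18. Whether these changes differ from those of the blood globins was not tested. The level of mb in eye, 74.95 to 230 FPKM, exceeded that of hbbe2.

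Genes of other cells that come with blood were set beside these values. Endothelial and vessel wall genes were higher for 13 of 24 tested in eye (median 0.01) and 15 of 27 in brain (median 0.02; 11 of 27, median -0.04, without the 2 libraries), and their summed level was 164 to 182 FPKM in eye DMSO, 160 to 176 in eye IPP, 144 to 173 in brain DMSO and 146 to 179 in brain IPP. The endothelial genes sox18, tek and clec14a were picked for the smallest unadjusted p in eye among listed genes averaging at least 1 FPKM. In eye they were lower in every exposed library than in any control library, as 3.54% of all genes were. Their changes there were -0.40 ± 0.12, -0.50 ± 0.15 and -0.43 ± 0.14 (limma adjusted p = 0.333, 0.340 and 0.350). In brain their changes were 0.20 ± 0.25, -0.06 ± 0.15 and -0.005 ± 0.19. Leukocyte and microglial genes were higher for 6 of 12 in each tissue, with medians of -0.02 in eye and -0.006 in brain (5 of 12, median -0.07, without the 2 libraries), and their summed level was 166 to 226 FPKM in eye DMSO, 159 to 262 in eye IPP, 48.0 to 96.3 in brain DMSO and 47.5 to 223 in brain IPP. Thrombocyte genes were higher for 3 of 5 in eye and 3 of 4 in brain (medians 0.38 and 0.10), and without the 2 libraries for 0 of 3 in brain (median -0.26). Their defining markers were low but not absent: mpl was at 0.131 FPKM or less in the 16 libraries, itga2b did not exceed 0.449 FPKM, gp9 reached 1.26 FPKM in eye and 1.70 FPKM in brain, and gp1bb 1.46 and 2.40 FPKM.

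Genes of liver plasma proteins were higher for 9 of 11 tested in eye (median 0.62) and 8 of 19 in brain (median -0.03; 2 of 7, median -0.18, without the 2 libraries). Their summed level was 75.7 to 204 FPKM in eye DMSO and 93.2 to 262 FPKM in eye IPP. In brain it was 46.0 to 6054 FPKM in DMSO and 46.7 to 8857 FPKM in IPP, with a median of 72.6 and 73.2 FPKM. In eye, apobb.1, which encodes a lipoprotein, averaged 0.178 ± 0.151 FPKM in DMSO and 2.81 ± 2.01 FPKM in IPP (2.08 ± 0.43, limma adjusted p = 0.274). The part of these other cells in the globin values was not tested.

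Over the 8 libraries of each tissue, the 6 tested genes were averaged to 1 profile, and 12123 genes with a symbol other than a clone name were ranked by the smaller of their 2 correlations with it. The most alike were anln, a cytokinesis scaffold gene, with Pearson r of 0.82 in eye and 0.86 in brain, dbt (0.84 and 0.82), prc1a (0.85 and 0.80), cenpx (0.96 and 0.80) and clns1a (0.83 and 0.78). Next came chchd1, iqcb1, ccni2, armc1l and cwf19l1, with a smaller r between 0.74 and 0.77. These values describe 8 libraries of each tissue that differ in depth and treatment group, and carry no test. Of the globins that took no part in the profile, hbae1.2 ranked 54, hbbe1.2 ranked 116, hbae1.1 ranked 639 and AL935210.1 ranked 2677, the last with r of 0.09 in eye and 0.02 in brain.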

How the data were processed

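Gene-level FPKM values of 16 libraries, in a table for eye and a table for brain, were used as deposited. The submitters' processing notes name HISAT2 2.0.5 and featureCounts 1.5.0-p3, and no source used here names the genome build. Per the labels' protocols, RNA was reverse transcribed with random hexamers, and both directional and non-directional library preparation are described, so strand use is not settled. FPKM times gene length came out as whole multiples of 1 step in 100% of values (tolerance 0.01 read), which gave recovered reads and, with 3 reads, the floor of a 0.

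The main test was limma 3.58.1 (R 4.3.3, eBayes with trend, two-sided) on log2(FPKM + 0.5) after removal of genes that averaged under 0.5 FPKM, in each tissue separately, with Benjamini-Hochberg adjustment over all genes tested and a threshold of 0.05. The difference between tissues was fitted over 16 libraries. The scripts were tested on simulated data. Alternatives were pseudocounts of 0.1 and 1, no filter or 2 FPKM, other scalings and variance models, limma-voom on recovered reads, the replicate number as a block, and leaving out libraries. The summed globins, also without each library, and leaving out IPP replicates 3 and 4 or the brain libraries high in liver genes, were added after the data were seen.

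The genes and the 14 lists were chosen with earlier results of these data known. From each list, up to 3 genes with the smallest unadjusted p in a tissue and a mean of at least 1 FPKM could be named. No sequence is shown.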

Additional observations from a re-analysis of the deposited data

Results flagged for a closer look

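Among 209 groups of 4 libraries checked, over 53 genes named in the text, 27 had 1 library far from the other 3. Chance flags about 1 in 20 groups of independent, normally distributed values, which these are not. Where 3 libraries are at 0, any read in the other is flagged, as for alas2 and hbbe3. Several flags also come from the same libraries, so the count was not tested against chance. Of these, 3 concerned genes of the set. In eye IPP replicate 3, hbbe1.1 stood at 248 FPKM (1894 reads) against 100 to 125 FPKM in the other exposed eye libraries, and hbae5 at 6.26 FPKM (88 reads) against 0.541 to 1.14 FPKM. In eye IPP replicate 4, alas2 stood at 0.0284 FPKM, from 1 read, against 0.

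Other globins stood out in single libraries. The alpha globin hbae1.2 was at 13.03 FPKM in brain DMSO replicate 2 against 6.66 to 7.17 FPKM. The beta globin hbbe3 was at 7.65 FPKM (53 reads) in eye IPP replicate 2, at 0.183 FPKM in eye DMSO replicate 1, at 0.170 FPKM in brain DMSO replicate 1 and at 0.251 FPKM in brain IPP replicate 4, against 0 in the other libraries of each group, the last 3 values resting on 1 or 2 reads.

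Brain IPP replicate 4 was far from its group in several genes at once. There alas1 stood at 257 FPKM against 62.7 to 67.8 FPKM, rhag at 32.5 against 3.505 to 6.91 FPKM, slc2a1b at 20.0 against 5.27 to 5.61 FPKM and clec14a at 5.94 against 3.24 to 3.45 FPKM. The liver genes apoa1a, apoa1b and apobb.1 stood there at 396, 1610 and 100.5 FPKM, and brain DMSO replicate 1 had apoa1b at 1277 and apobb.1 at 40.7 FPKM. Eye DMSO replicate 1 had apoa1a at 17.5, apoa1b at 21.8 and vegfaa, a vascular growth factor gene, at 4.23 FPKM.

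The remaining libraries stood out in 1 or a few genes each. In eye IPP replicate 4, thbs1b was at 49.2 and slc2a1b at 27.3 FPKM, and in eye DMSO replicate 4, blvrb was at 4.44 FPKM. In brain, slc2a1b was at 7.16 FPKM in DMSO replicate 4, hmox2b at 3.15 FPKM in IPP replicate 2, and cpox at 5.22 and prc1a at 6.14 FPKM in DMSO replicate 2.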

How the results depend on the processing

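Of 399 values of the fold changes of the 6 tested genes under alternative settings, 390 kept their direction and 9 reversed, and none passed adjustment. These values cover eye, brain and the difference between them. The filters, the eBayes variance models and the replicate block cannot change a fold change, so their values repeat the main estimate. In eye, hbbe2 turned to 0.018 without DMSO replicate 1, 0.034 without DMSO replicate 4 and 0.031 without IPP replicate 2 (lowest and highest over single libraries left out -0.19 and 0.034). There hbbe1.1 turned to -0.17 without DMSO replicate 2, -0.045 without IPP replicate 3 and -0.048 without IPP replicates 3 and 4 (-0.17 to 0.53), and hbae5 to -0.082 without IPP replicate 3 and -0.079 without both (-0.082 to 0.82). The eye minus brain difference of hbae3 turned to 0.055 without brain IPP replicate 3 (-0.36 to 0.055). Leaving out 1 library at a time gave 0 to 3 called genes over all genes in eye, 3 of them without DMSO replicate 4 and 1 without IPP replicate 1, 0 to 0 in brain and 0 to 0 for the difference. It gave 1 to 3 of the 6 genes at an unadjusted p under 0.05 in eye, 2 to 6 in brain and 0 to 1 for the difference, and 3 to 6, 6 to 6 and 1 to 2 with a positive value. The 6 in brain came without IPP replicate 4. Over all genes, an unadjusted p under 0.05 was reached by 1242 of 17139 to 2922 of 17051 in eye. In brain it was reached by 348 of 17574 to 764 of 17582, and for the difference by 437 of 15869 to 1143 of 15802. Without IPP replicates 3 and 4, the count of positive genes in eye was 3. The count at an unadjusted p under 0.05 was then 0 in eye and 1 in brain, against 1417 of 17013 and 888 of 17004 over all genes. Without brain DMSO replicate 1 and IPP replicate 4, 1 gene of all was called in brain. For the difference, 1 of the 6 then reached an unadjusted p under 0.05, against 785 of 15681 over all genes. Counted by reads, alpha shares were 55.2% in eye DMSO, 55.7% in eye IPP, 53.0% in brain DMSO and 48.7% in brain IPP. Whether replicate numbers pair exposed with control libraries was not settled. Same-numbered deviations correlated at -0.09 to 0.04 in eye, where none was its number's best match. In brain they correlated at -0.09 to 0.33, and replicates 2 and 3 were best matches. Same-numbered eye and brain libraries correlated at 0.21 to 0.38 in IPP, where each was its number's best match. In DMSO they correlated at -0.14 to 0.44, and replicates 1 and 4 were best matches. This is a hint from the data, not from the design, that eye and brain values may not be independent. With the replicate block, 0 genes were called in either tissue, and 2 of the 6 genes in eye and 5 in brain had an unadjusted p under 0.05. Over all genes, 1737 of 17096 in eye and 616 of 17533 in brain did. A block of same-numbered eye and brain libraries gave 0 called genes for the difference. Where a value changed, the cause was not tested. In brain hbae5 rested on 2 to 35 reads.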
